A study of Mus musculus with 20 samples.

Results

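The regions described here were open chromatin called in every library of the Setd2 knockout (KO) at D0 and D1 and in no wild-type (WT) library of the same days. ATAC-seq marks open DNA with a transposase that inserts sequencing adapters, and a peak is a stretch with more insertions than its background. The 20 deposited peak lists held 787806 peaks, which were merged wherever they shared 1 bp into 101352 regions. Of these, 358 regions (0.353%) were overlapped by a peak in all 6 early KO libraries and in none of the 6 early WT libraries. The opposite pattern, a call in all 6 early WT and no early KO library, was met by 989 regions (0.976%), the WT-only set, and 19629 regions were called in all 12 early libraries. The 358 members were chosen by these calls, so their presence in early KO lists is a description and was not tested.

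The cells were C2C12, a line of mouse myoblasts that can be induced to form muscle fibres, either WT or KO for Setd2. Both genotypes were sampled at D0, D1 and D5, and the D1 and D5 cultures were kept either in control medium (CTL) or in medium restricted for methionine (MR), which gave 10 groups of 2 libraries. WT libraries were replicates 1 and 2. KO libraries came 1 each from line 1 and line 2, and variation within a KO group is therefore also variation between lines. The labels do not say whether a KO line is 1 clone or whether replicates were separate cultures, so p-values measure only the spread between these libraries. An effect of Setd2 loss and a difference acquired while both lines were derived cannot be told apart.

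SETD2 is the enzyme that places trimethylation on lysine 36 of histone H3 (H3K36me3) over the bodies of transcribed genes. The mark is known to help suppress transcription from improper start sites inside genes. Open regions outside promoters often contain enhancers, stretches that bind transcription factors and act on genes at a distance, and the nearest gene need not be the one they act on.

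Early KO lists held 30629 to 63530 peaks and early WT lists 43058 to 69881. The D5 lists held 20847 to 39538 peaks in WT and 22062 to 29963 in KO line 2, but 644 and 1881 in KO line 1. Every D5 value of KO line 1 therefore rests on a very short list, and read totals were not analysed here. Of 8 myoblast markers fixed for this work, Myod1, Des, Cdh15 and Ncam1 were called at an end of the gene in each of the 12 early libraries, while Myf5, Pax7, Pax3 and Vcam1 were called in none. Of 11 markers of other cell types, 7 had no peak in any early library and none had one in all 12. Of 8 markers of differentiating muscle, 7 were called in fewer early KO than early WT libraries, 0 in more, and Myh3 in no early library. Myog, the muscle differentiation factor, was called in 4 early WT and 0 early KO libraries, the fusion factors Mymk and Mymx in 6 and 4 and in 6 and 3, Acta1 in 4 and 1, Ckm in 3 and 0, Actc1 in 2 and 0, and Tnnt3 in 6 and 5. At D5, all 8 were called in at least 1 WT library and only Tnnt3 in line 2. The part of these markers in the results was not tested.

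Few members lay at promoters, and those that did can be shown as sequence. Within 1000 bp of an annotated coding start lay 14 members (3.91%), against 12.2% of all regions and 6.47% of the WT-only set. The RefSeq table for GRCm38.p6 has promoter entries, each covering 250 bases before and 50 after an annotated start. In all, 16 members (4.47%) overlapped 19 of these entries, a share close to the 4.85% of the WT-only set. It was 28.1% for the regions open in all 12 early libraries and was not computed over all regions. The stretches below are the parts of 6 such members that lie upstream of the start, chosen because they are the strongest at coding starts or share a motif. All are 5′ to 3′ on the gene's own strand, and capitals mark the AP-1 letters TGANTCA, the CCAAT letters or the E-box CAGCTG, searched on both strands. They belong to Ctla2b (chr13:60897448-60897697, minus strand), Ctla2a (chr13:60936626-60936799, minus strand), Syt1 (chr10:109010976-109011153, minus strand), St8sia4 (chr1:95667595-95667771, minus strand), Cacnb2 (chr2:14604124-14604305, plus strand) and Orm3 (chr4:63355924-63356157, plus strand).
Ctla2b: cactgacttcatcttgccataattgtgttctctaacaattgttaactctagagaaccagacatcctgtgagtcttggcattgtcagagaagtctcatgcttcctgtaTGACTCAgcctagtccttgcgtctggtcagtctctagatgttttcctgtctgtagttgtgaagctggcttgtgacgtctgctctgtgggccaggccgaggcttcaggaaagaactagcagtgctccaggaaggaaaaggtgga
Ctla2a: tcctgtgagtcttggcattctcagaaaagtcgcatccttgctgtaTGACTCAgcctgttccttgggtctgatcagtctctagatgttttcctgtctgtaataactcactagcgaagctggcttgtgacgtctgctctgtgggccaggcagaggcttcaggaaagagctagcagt
Syt1: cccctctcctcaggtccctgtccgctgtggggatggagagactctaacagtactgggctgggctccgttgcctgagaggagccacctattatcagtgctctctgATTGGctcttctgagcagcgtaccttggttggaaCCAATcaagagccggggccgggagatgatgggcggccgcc
St8sia4: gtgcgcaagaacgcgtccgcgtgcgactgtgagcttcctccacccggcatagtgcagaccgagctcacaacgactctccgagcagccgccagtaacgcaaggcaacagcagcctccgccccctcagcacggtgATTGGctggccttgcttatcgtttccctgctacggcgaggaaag
Cacnb2: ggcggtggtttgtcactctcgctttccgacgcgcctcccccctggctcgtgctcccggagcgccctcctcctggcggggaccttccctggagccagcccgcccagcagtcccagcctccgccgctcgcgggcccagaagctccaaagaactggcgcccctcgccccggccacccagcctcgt
Orm3: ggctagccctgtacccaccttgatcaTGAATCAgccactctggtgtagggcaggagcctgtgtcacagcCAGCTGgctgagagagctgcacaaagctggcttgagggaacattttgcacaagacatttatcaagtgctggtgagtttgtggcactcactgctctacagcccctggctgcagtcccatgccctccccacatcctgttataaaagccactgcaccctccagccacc

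The Ctla2b and Ctla2a stretches both carry TGACTCA in the same surroundings, and Orm3 carries TGAATCA. Ctla2a and Ctla2b encode related inhibitors of cysteine proteases, and 91.7% of 278 aligned bases of their promoter entries were identical, so reads could be split or shared between the copies and both regions are uncertain. Over the whole entries, the AP-1 letters were found in 5 of the 19 entries (26.3%), against 7.79% of all 32544 promoters searched and 2 of the 55 entries (3.64%) under the WT-only set. Those 5 entries lie in only 4 regions and include the Ctla2 copies, and Ctla2a has 2 entries under 1 region. The CCAAT letters, present in the Syt1 and St8sia4 stretches, were in 8 of 19 entries (42.1%) against 37.4% of all promoters and 40.0% of the WT-only entries. CAGCTG, an E-box that myogenic factors can bind, was in 5 of 19 (26.3%) against 16.4% of all promoters, and was more frequent, in 21 of 55 (38.2%), under the WT-only set. The Cacnb2 stretch held none of the letters searched. A match of letters is no evidence of binding.

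The start of Ctla2b was among the strongest of the members at promoters. Strength was the rank of a peak's fold enrichment, the authors' own value, in percent of that list's peaks, with ties averaged. Ranks stay within each list because lists called separately do not share a scale. The Ctla2b region (chr13:60897400-60897710) stood at the 80.0th percentile in KO D0 line 1 and the 72.7th in line 2, at 88.9 and 76.7 in D1 CTL, and at 88.5 and 85.8 in D1 MR. At D5 it was called in line 2 only, at 61.8 in CTL and 72.4 in MR, and no WT library of any day called it. The Ctla2a region was weaker in all 6 early KO lists, from 15.1 to 67.9.

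Syt1 encodes synaptotagmin, the calcium sensor of transmitter release, and had a pair of members at its start. The region over the start (chr10:109010884-109011153) lay at 92.9 and 77.4 in D0 for lines 1 and 2, 94.2 and 65.3 in D1 CTL, and 94.7 and 80.1 in D1 MR. The second region (chr10:109011539-109011764), 564 bp upstream, lay at 96.1 and 74.2, 93.5 and 87.0, and 87.1 and 81.1 in the same order. Both ranked higher in line 1, whose early lists were longer, than in line 2 under each condition. At D5 the region over the start was called in both line 2 libraries, at 58.1 in CTL and 5.61 in MR, and the upstream region in CTL only, at 39.2. The nearest early WT peak was 469097 bp from the start region.

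St8sia4 encodes a polysialyltransferase that adds polysialic acid to the adhesion molecule NCAM. The member over its start (chr1:95667537-95667771) reached 78.8 and 91.5 in D0, 70.4 and 97.1 in D1 CTL and 67.9 and 72.0 in D1 MR for lines 1 and 2. Line 2 was the higher here in each condition, the reverse of Syt1. Both line 2 libraries of D5 called it, at 78.9 in CTL and 86.4 in MR. The region also covers the start of the lncRNA Gm30431 on the other strand, so the 2 starts cannot be separated.

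The other members at ends of coding genes were weaker by their lowest early percentile. Cacnb2, an accessory subunit of voltage-gated calcium channels, had 36.5 to 66.2 over the 6 early KO lists, and Col11a1, a fibrillar collagen, 28.4 to 77.0. Both were called at D5 in the CTL library of line 2 alone. Gda, a guanine deaminase, lay low in all 6 early lists, from 18.7 to 46.9, yet both line 2 libraries of D5 called it. Members near ends of Ccl20, a chemokine, Map3k7, the kinase TAK1, and Wt1, a zinc-finger transcription factor, had lowest early percentiles of 21.2, 20.2 and 18.6. The Wt1 region was called in no D5 list. The Map3k7 region was called in both line 2 libraries of D5 and, at the 14.5th percentile, in WT D5 MR replicate 2. Orm1 and Orm3, related genes of the acute-phase protein orosomucoid, each had a member, with early ranges of 18.3 to 83.3 and 5.06 to 63.6.

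Most members lay far from promoters. A gene end was taken as the 1000 bp either side of either end of a protein-coding gene. By this measure 20 members (5.59%, 95% Wilson interval 3.65 to 8.47) were at gene ends, 142 (39.7%, 34.7 to 44.8) in gene bodies and 196 (54.7%, 49.6 to 59.8) outside genes. Intervals here and below cover counting error only. The shares were 15.8%, 45.5% and 38.7% over all regions, and 33.1%, 37.8% and 29.0% over regions open in all 12 early libraries. The WT-only set had 9.10%, 56.7% and 34.2%. Members thus had the lowest share at gene ends and the highest outside genes of these 4 sets, a description without a test. The pattern was not particular to them. Regions called in 5 of 6 early KO and no early WT library had 4.61%, 40.7% and 54.7%. Those called in all 6 early KO and 1 early WT library had 5.39%, 46.1% and 48.5%. A lncRNA gene and no coding gene was overlapped by 34 members (9.50%), against 8.16% of all regions.

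**Figure D1:**
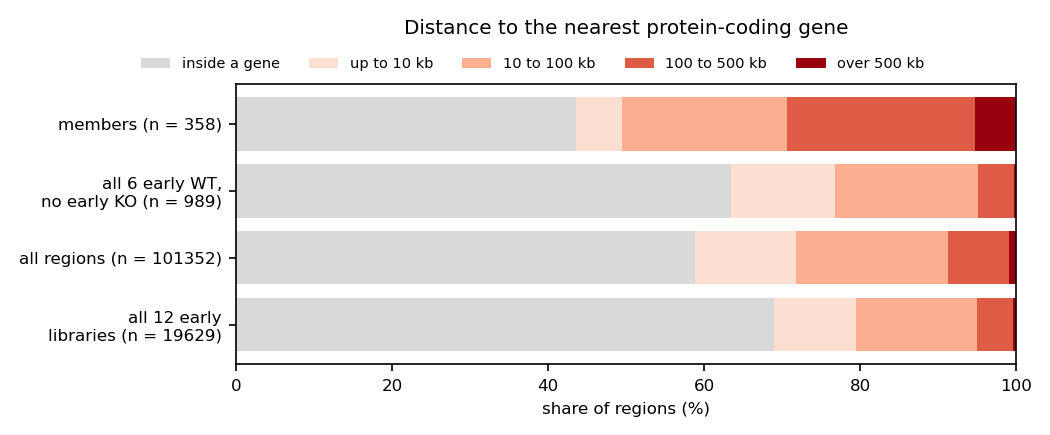
Share of regions (horizontal axis, percent) by distance to the nearest protein-coding gene, for the 358 members and 3 comparison sets; colours are distance classes. The 2 darkest classes, over 100 kb from a gene, make up 29.3% of members and 8.71% of all regions.

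The distances were long. The median distance to an annotated coding start was 138183 bp for 349 members (none is listed for chromosome 18), 30624.5 bp over all regions, 16140 bp for regions open in all 12 early libraries and 31714 bp for the WT-only set. More than 100 kb separated 105 members (29.3%) from any coding gene, against 8.71%, 4.96% and 4.85% of those sets. The share was 28.9% for regions called in 5 of 6 early KO and no early WT library. It was 22.8% for those called in all 6 early KO and 1 early WT library. For 19 members (5.31%) the distance was over 500 kb, against 0.873% of all regions. These 19 included regions near Cntnap5a, a neurexin-family gene 1644999 bp away, Map3k7 (1352736 bp), Adgrl2, an adhesion receptor (1002718 bp), Pcdh9, a protocadherin (710278 bp), and Epha7, an ephrin receptor (511004 bp). Members inside coding genes lay in long genes, with a median gene length of 197474 bp against 72555 bp over all regions. It was 150939 bp for the 5 of 6 KO regions and 103315 bp for those with 1 WT call. The rule excludes early WT peaks that overlap a member. The nearest early WT peak was a median of 36794 bp away, and 13 members (3.63%) had one within 1000 bp. For the 5 of 6 KO regions the values were 21223 bp and 6.21%. From WT-only regions to early KO peaks they were 7056 bp and 13.2%.

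The strongest members, ordered by their lowest percentile over the 6 early KO lists, were mostly intergenic. The first lay 97903 bp from Tacr3, the neurokinin B receptor (chr3:134730944-134731104). It stood at 93.6 and 96.1 in D0 for lines 1 and 2, 90.2 and 95.7 in D1 CTL and 92.2 and 89.9 in D1 MR, with a fold enrichment of 8.10 to 11.1. At D5 it was called only in line 2, at 46.4 in CTL and 51.4 in MR, in the middle of those lists.

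The next lay 152098 bp from Galnt13, a glycosyltransferase that starts O-linked sugar chains (chr2:54283910-54284113). Its early percentiles were 87.2 and 90.6 in D0, 96.1 and 87.9 in D1 CTL, and 95.5 and 92.2 in D1 MR. The D5 calls in line 2 were at 84.5 and 71.1. In the body of Pde3a, a phosphodiesterase of cyclic nucleotides (chr6:141408705-141409102), a member had 97.1 and 86.1, 96.9 and 90.3, and 95.8 and 91.3 in the same order. The D5 values of line 2 were 73.6 in CTL and 56.2 in MR, below all 6 early values.

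A region 17421 bp from Cdc7, a kinase that fires replication origins (chr5:107001861-107002062), kept a high rank to D5. It had 83.0 and 88.1 in D0, 93.1 and 91.0 in D1 CTL, 95.5 and 96.2 in D1 MR, and 98.3 and 96.8 in the D5 CTL and MR libraries of line 2. A region 360553 bp from 4933412E24Rik (chr15:60377171-60377670) differed between lines. Line 1 had 74.9, 90.1 and 88.9 in D0, D1 CTL and D1 MR, and line 2 had 99.0, 99.7 and 99.7. In line 2 at D5 the rank was 72.5 in CTL and 1.93 in MR, the widest gap between those D5 libraries among the 12 strongest members that both of them called.

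The rest of the 12 strongest lay near or in Hao1, a peroxisomal oxidase, Ctnnd2, a neuronal catenin, Syt1, Gas7, a gene of neurite outgrowth, Rprm, a cell cycle inhibitor, Sox6, a transcription factor that represses slow-fibre genes in muscle, and Cntnap5a. Their lowest early percentiles ran from 73.0 to 81.9. Except for the Syt1 and Gas7 regions, called in the CTL library alone, the strongest 12 were called in both D5 libraries of line 2, and none of the 12 was called in a D5 WT library.

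**Figure D2:**
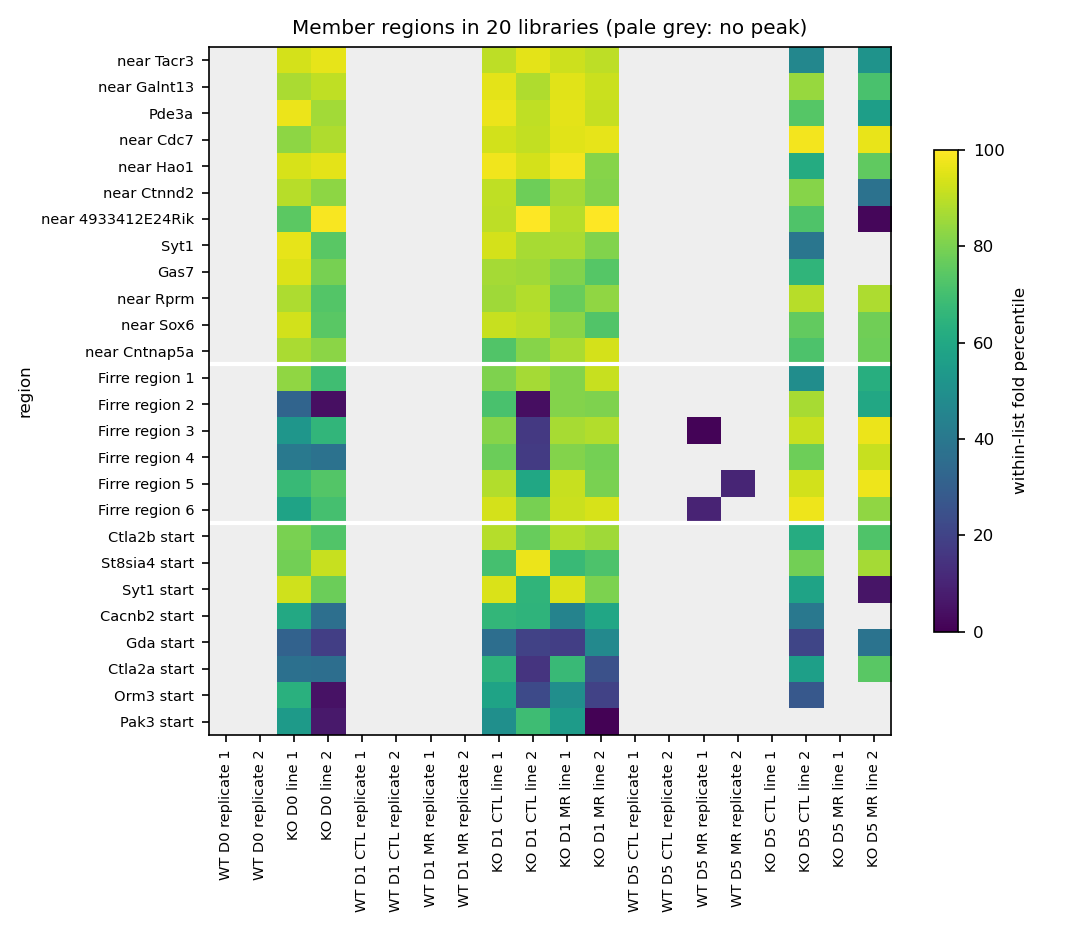
Within-list fold percentile (colour, 0 to 100) of member regions (rows) in 20 libraries (columns); pale grey marks a library with no peak there. The top block holds the 12 strongest members, the middle block the 6 members in Firre and the bottom block 8 members over coding starts. Early WT columns are empty by the rule, and the D5 columns of KO line 1 are empty for all rows shown.

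Taken over all 358 members, strength in the early KO lists was close to the middle of each list. The median percentile was 62.2 in KO D0 line 1 and 40.5 in line 2, 60.2 and 53.0 in D1 CTL, and 55.1 and 45.9 in D1 MR. Line 1 was higher than line 2 in each condition, and 241 of 358 members had the higher mean in line 1. Its list was also the longer one each time. Peaks numbered 63530 against 30629 in D0, 61045 against 46664 in D1 CTL and 48460 against 35201 in D1 MR. The part of list length in the difference between lines was not tested. Group means were 51.4 ± 15.3 in D0, 56.6 ± 5.07 in D1 CTL and 50.5 ± 6.49 in D1 MR (SD, n = 2 each). D1 CTL minus D0 was 5.23 percentile points and D1 MR minus D1 CTL was -6.12. With 2 libraries a group the smallest exact permutation p is 0.33, and these lists chose the members, so both differences are descriptions. Neither kept its direction at equal list length. Among the 20000 strongest peaks of each list, which held an average of 170.5 members in D0, 151 in D1 CTL and 175.5 in D1 MR, the group means were 36.8, 36.4 and 41.2, and the differences were -0.395 and 4.87. Without KO D0 line 2, D1 CTL minus D0 was -5.60.

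Strength varied widely between lists for a given member. The median range over the 6 lists was 47.9 percentile points. Only 46 members were above the median of all 6 lists and 6 above the 75th percentile, while 93 fell under the tenth percentile of at least 1 list. The weakest list was most often KO D0 line 2, which gave 116 members their lowest value. The median length of members was 249.5 bp (112 to 1162). It was 172 bp over all regions, 188 bp for the WT-only set and 452 bp for regions open in all 12 early libraries. In 353 members some bases were covered in all 6 KO libraries, a median of 80.0 bp or 35.1% of the region.

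**Figure D3:**
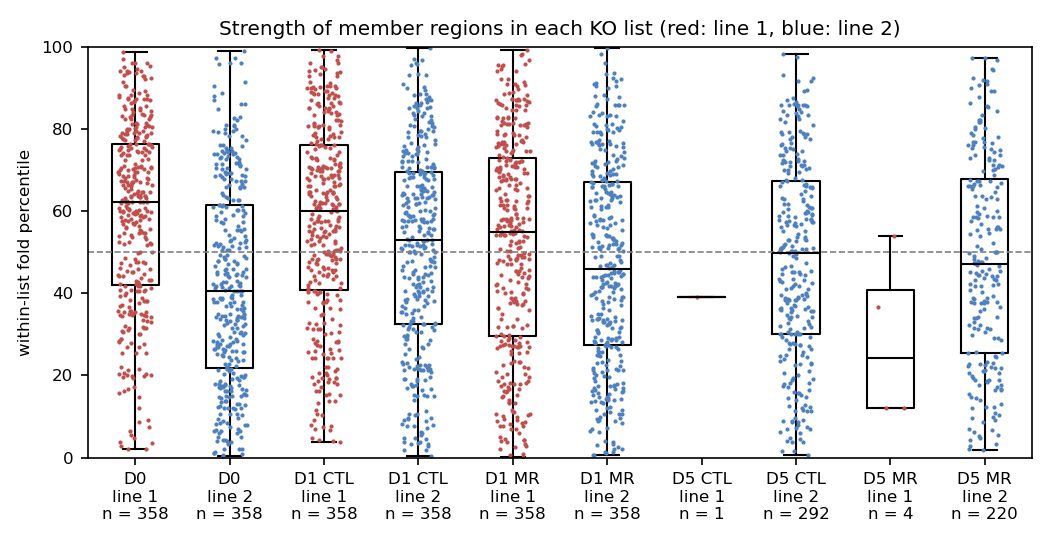
Within-list fold percentile of the member regions (vertical axis, 0 to 100) in each of the 10 KO lists. Points are regions called there, boxes give quartiles with whiskers to the extremes, and red is line 1 and blue line 2. Early medians run from 40.5 to 62.2, and the D5 lists of line 1 hold 1 and 4 members.

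Regions just outside the rule were weaker or carried 1 weak WT peak. The 499 regions called in 5 of 6 KO and no WT library had a median of 39.2 in the libraries that called them, against 52.0 for members. The missing library was KO D0 line 2, the shortest early list, for 258 of them and KO D1 MR line 2 for 127. The 167 regions called in all 6 KO and 1 WT library had 48.0. Their WT peak was in WT D1 MR replicate 1, the longest list, for 99 regions, and its median percentile was 14.2. The count of members depends on these lists. Without KO D0 line 2 the rule found 616 regions, without all line 1 libraries 650, and without all line 2 libraries 4033. With a call requiring 50% of the region to be covered it found 198, of which 107 were members, and with only the 20000 strongest peaks of each list 259, of which 37 were members.

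The calls at D5 were not used by the rule. In KO line 2, 292 members (81.6%) were called in CTL and 220 (61.5%) in MR, where 28.7% and 21.4% of all regions were called. In WT CTL, 2 members (0.559%) were called in each replicate, against 21% and 19.6% of all regions. In WT MR, 18 (5.03%) and 11 (3.07%) were called, against 37.8% and 37.2%. KO line 1 called 1 member (0.279%) in CTL and 4 (1.12%) in MR, against 0.632% and 1.85% of all regions, so its shares were under the background of lists with few peaks. In each medium the WT libraries lay between the 2 KO lines.

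The percent called was higher in KO than in WT by 33.8 points on average over both media (exact two-sided permutation p = 0.5, adjusted p = 1 by Benjamini-Hochberg over 6 tests, the 2 early comparisons of strength included). Scaled by list length, members made up 10.0 and 10.1 per 1000 called regions in line 2 (CTL and MR) and 1.56 and 2.13 in line 1. The 95% Poisson intervals of line 1 were wide, 0.0395 to 8.69 and 0.581 to 5.46. WT had 0.0939 and 0.101 in CTL and 0.469 and 0.292 in MR. All 4 KO values were above all 4 WT values, with a mean difference of 5.72 per 1000 regions. The exact permutation p was 0.056, the smallest the 36 arrangements allow (adjusted p = 0.33), and does not pass 0.05. The 4 KO values come from 2 lines, each counted in CTL and MR. This p-value treats them as independent libraries, which they are not shown to be. MR differed from CTL by -3.07 points in percent called (exact p = 1) and by 0.313 per 1000 (exact p = 0.389, adjusted p = 1). Medium was permuted across KO lines in this test, so its p-values include the gap between lines. Per 1000, MR was above CTL by 0.573 in line 1 and by 0.111 in line 2. Both WT MR values were above both WT CTL values. The value of -3.07 averages opposite directions. Mean percent called rose from 0.559 in CTL to 4.05 in MR in WT, and fell from 40.9 to 31.3 in KO. After the data had been seen, the genotype differences were also computed without KO line 1, and were 69.2 points and 9.84 per 1000. These rest on 1 KO line, counted in both media.

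**Figure D4:**
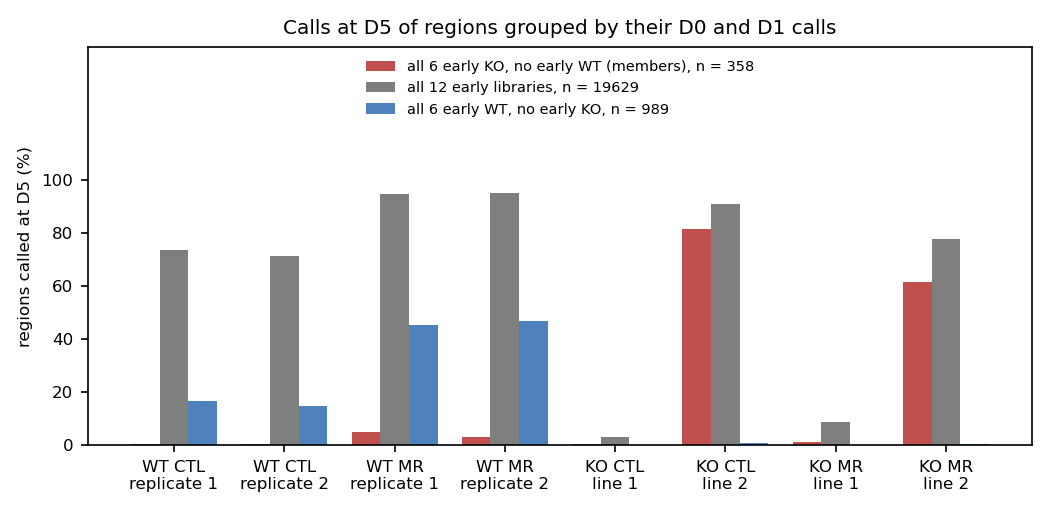
Percent of regions called in each of the 8 D5 libraries (vertical axis) for 3 sets defined by early calls. Red bars (members) reach 81.6% and 61.5% in KO line 2 and stay at or under 5.03% elsewhere, grey bars are regions open in all 12 early libraries, and blue bars are the WT-only set.

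In line 2, 206 members (57.5%) were called in both media at D5, 86 in CTL only, 14 in MR only and 52 in neither. Of all regions, 19.2% were called in both, 9.52% in CTL only, 2.19% in MR only and 69.1% in neither. Of regions open in all 12 early libraries, 75.8% were called in both. The members called in both had a higher median early percentile, 57.1, than those called in 1 (49.3) or neither (40.3). By position, both line 2 libraries called 126 of 196 members outside genes (64.3%), 69 of 142 in gene bodies (48.6%) and 11 of 20 at gene ends (55.0%). Shares by position over all regions are not given here. In the WT-only set, 2 of 989 regions were called in both line 2 libraries. At least 1 D5 WT library called 534 of them (54.0%), against 42.8% of all regions.

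In WT at D5, 336 members (93.9%) stayed without a call, against 57.2% of all regions, and 22 had at least 1. Only 2 (0.559%) were called in all 4 WT libraries, against 16.8% of all regions. The first lies in the body of Clec16a, a gene of autophagy (chr16:10574969-10575263), with WT percentiles of 44.0 and 21.7 in CTL and 39.6 and 55.7 in MR, against 85.6 and 76.2 in the D5 CTL and MR libraries of line 2. The second lies 213008 bp from Aldh8a1, an aldehyde dehydrogenase, within the lncRNA 1700020N01Rik (chr10:21609586-21609863), with 54.6 and 56.7 in WT CTL, 48.1 and 68.5 in WT MR, and 75.4 and 63.7 in line 2. In the WT MR lists the called members ranked low, with medians of 16.6 and 21.8. A D5 library of KO line 1 called 5 members (1.40%, against 2.19% of all regions). Named after their values were seen, these 5 lie nearest Rnf152, Asic2, Gas7, Cyp7b1 and Gc. In no D5 list were 49 members called (13.7%, against 51.0% of all regions).

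Firre, an X-linked lncRNA gene built of local repeats and known for shaping nuclear architecture, held the neighbourhood with the most members. Its 6 members lay within 42541 bp, inside the gene (chrX:50563120-50635321), and no other neighbourhood, defined as members at most 200000 bp from the next, had more than 5. All 6 were called in both D5 libraries of line 2. The region at chrX:50614513-50615208 had 58.0 and 70.4 in D0 for lines 1 and 2, 93.7 and 79.5 in D1 CTL and 92.2 and 93.8 in D1 MR, then 97.6 and 83.4 in D5 CTL and MR of line 2. The region at chrX:50611843-50612538 had 67.5 and 73.2, 88.4 and 59.7, 91.5 and 79.8, then 93.3 and 97.4. In WT, 3 of the 6 were called once each at D5, in an MR library, at percentiles of 0.817, 9.78 and 10.5. The deposited lists had 21 regions in Firre altogether. All 21 were called in at least 1 early KO library, 19 of them in no early WT library, and 1, at the end of the gene (chrX:50635319-50635510), in all 12. Because the repeats resemble each other, placement of reads among them is uncertain.

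Other neighbourhoods were smaller. On chromosome 10, 5 members lay over 524642 bp in and near Ppp1r14c, an inhibitor of protein phosphatase, and Plekhg1, an exchange factor of small GTPases, and 3 of them were called in both D5 libraries of line 2. Groups of 4 lay near Hao1 on chromosome 2, near St8sia4 on chromosome 1 and near Emc2 and Tmem74 on chromosome 15, with 2, 3 and 3 so called. In the Hao1 group median early percentiles were 95, 69.6, 65.7 and 61.1. Groups of 3 within 1 gene lay in Aff3, a transcription elongation factor gene, Gas7 and Magi2, a synaptic scaffold gene, with 3, 1 and 3 called in both line 2 libraries. In all, 246 members stood alone and 112 were in 45 neighbourhoods. The members were nearest to 290 coding genes.

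By nearest gene, none of the 358 members belonged to the 50 muscle genes listed for this work, against 0.401% of all regions, itself a small share. Members nearest genes of ion channels and transmitter receptors numbered 12 (3.35%, against 1.33% of all regions). For cell adhesion there were 15 (4.19% against 1.27%), and for axon guidance 6 (1.68% against 0.898%). Shares for the WT-only set were 1.72%, 1.52% and 1.31%. These members reached 11, 9 and 5 genes. Adgrl2 alone was nearest to 4 of the adhesion members, and Robo2 is in both the adhesion and the axon guidance list. Extracellular matrix genes had 6 members (1.68% against 1.41%), developmental signalling genes 4 (1.12% against 1.35%) and developmental transcription factors 11 (3.07% against 2.16%). No list was tested.

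Within these lists, a member in Asic2, an acid-sensing channel (chr11:81344183-81344390), was even across lists, from 70.7 to 79.0, and was called at D5 in both line 2 libraries (85.8 and 79.1) and in line 1 MR (53.9). Cacna1e, a neuronal calcium channel, had a member in its body with 46.7 to 88.3. The adhesion gene Pcdh9 had a member 710278 bp away, with 53.1 to 78.1 in the early lists and 91.8 and 92.5 in D5 CTL and MR of line 2. Of 2 members nearest Cdh12, a cadherin gene, the stronger lay 12300.0 bp away, with 48.0 to 69.8 early and 84.0 and 50.01 in D5 CTL and MR of line 2, and the other (0.765 to 48.8) was called in no D5 list. Among transcription factors, Nfib, a factor of lung and brain development, had a member 153064 bp away with 52.2 to 94.1, and Sox6 had 3 members. Of 2 members nearest Epha7, the one 511004 bp away had 57.6 to 81.03 early and the one 22834 bp away 16.7 to 80.2, and both were called in both line 2 libraries at D5 (70.0 and 66.5, then 71.9 and 75.3). A member in Robo2, an axon guidance receptor, had 44.8 to 82.5 and was called in no D5 list.

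Members were spread over all 20 chromosomes analysed, unevenly. Chromosome 1 had 36 (10.1%, against 7.15% of all regions), chromosome 3 had 32 (8.94% against 5.39%) and chromosome 10 had 30 (8.38% against 5.74%). Chromosome 12 had 6 (1.68% against 3.70%), chromosome 7 had 9 (2.51% against 5.56%) and chromosome 9 had 1 (0.279% against 4.74%). That single member lies in the body of Rora, a nuclear receptor gene (chr9:68944106-68944364), with early percentiles of 31.3 to 60.9. Just outside the rule, chromosome 9 had 27 of the 499 regions called in 5 of 6 KO and no WT library, and 15 of these 27 lacked a peak in KO D0 line 2 alone.

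**Figure D5:**
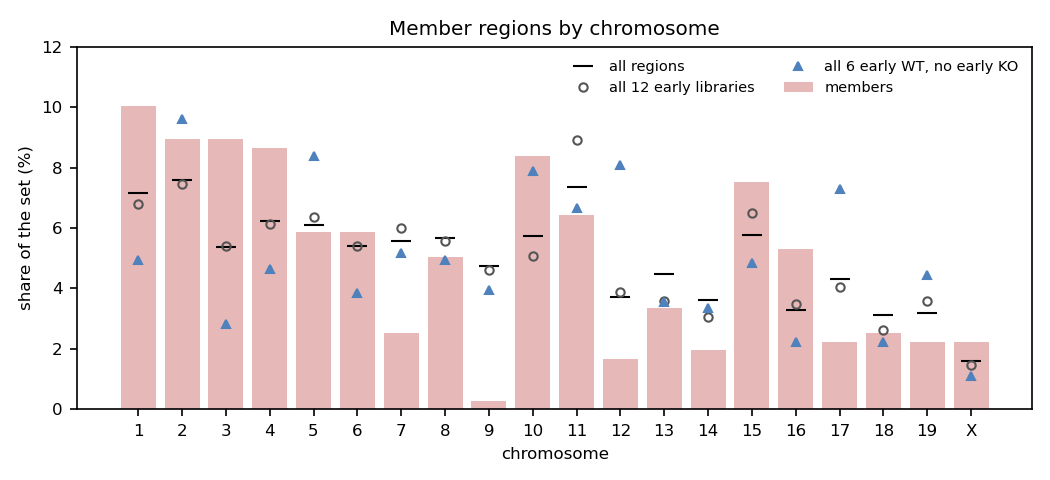
Share of each set on each chromosome (vertical axis, percent). Bars are the 358 members, black dashes all regions, circles regions open in all 12 early libraries and triangles the WT-only set. Bars stand above the dashes on chromosomes 1, 2, 3, 4, 6, 10, 15, 16 and X and fall to 0.279% on chromosome 9.

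Chromosomes 3, 4 and 15, singled out with earlier results of these data known, held 90 members (25.1%, 95% Wilson interval 20.9 to 29.9). They held 17.4% of all regions, 18.1% of regions open in all 12 early libraries and 12.3% of the WT-only set. Just outside the rule, they held 24.8% of regions called in 5 of 6 KO and no WT library. Of those called in all 6 KO and 1 WT library they held 26.3%. Regions open in all 12 early libraries ranked higher in line 1 than in WT by 3.05 percentile points on these chromosomes and by 1.64 on the others. In line 2 they differed by -4.91 and -8.24. Chromosomes 3, 4 and 15 were not alike, with 2.73, 3.71 and 2.69 in line 1 and -3.68, -8.23 and -2.81 in line 2. In line 1, chromosomes 6 (3.57) and 18 (3.21) were above chromosomes 3 and 15. Lines 1 and 2 had 2.98 and -7.73 on chromosome 1, and -1.35 and -12.4 on chromosome 10. DNA copy number of a chromosome and its openness cannot be told apart in these lists, and the part of these shifts in the share of members was not tested. Without all line 2 libraries the share was 19.2%.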

How the data were processed

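ATAC-seq was deposited as 1 broadPeak list for each of 20 C2C12 libraries, called per library. Per the labels, tagmentation used a commercial kit and was followed by 10 PCR cycles and paired-end sequencing. The build is GRCm38 per the submitters' processing notes. Aligner, duplicate handling, transposase shift and peak caller are not given in the sources used here. Each deposited list gives a score, a fold enrichment (ratio) and −log10 p-value and q-value per peak. The lowest deposited −log10 q-value was 1.00. They served to rank, filter and describe peaks inside their own list.

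Peaks were merged at 1 bp, and a region was called where a peak overlapped it by 1 bp. The merging and the rule were run on simulated lists over 101352 regions, and all 208 planted or chance members were recovered. Each simulated peak was made to hold the centre of its region, so this run checks the code only. It does not test the rule on real peaks. Fold percentiles used the strongest peak of the region. Genes came from the RefSeq GRCm38.p6 table, which has no strand, with 21631 protein-coding genes, and starts and sequences from its promoter table. No genome was used here, so motifs were searched in promoter entries only. Libraries were compared with exact stratified permutation tests, two-sided, with genotype permuted within medium or medium within genotype (36 arrangements). The libraries of a KO line were permuted as separate units. Python 3.11.15, numpy 2.4.6, pandas 2.3.3 and scipy 1.17.1 were used. Alternatives changed overlap, merging, threshold, list length, window and libraries.

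Named regions were the 12 with the highest lowest-percentile over early KO lists, up to 10 called in both D5 libraries of line 2 and no D5 WT library, up to 5 called in all D5 WT libraries, up to 3 per gene list, the 5 largest neighbourhoods and up to 10 at gene ends. Members, lists and rules were chosen with earlier results of these data known.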

Additional observations from a re-analysis of the deposited data

Results flagged for a closer look

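In 2 comparisons the KO lines moved in opposite directions, and the difference between lines was not tested, since each line has 1 library a condition. The median percentile of the members from D0 to D1 CTL changed by -2.01 points in line 1 and by 12.5 in line 2, where the D0 list was the shortest early list (30629 peaks). The percent of members called at D5 in MR minus CTL was 0.838 points in line 1 and -20.1 in line 2. The line 1 lists there held 644 and 1881 peaks, and the line 2 lists 29963 and 22062, so list length moved with both values. Its part in them was not tested.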

How the results depend on the processing

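The number of members was 198 when 50% of the region had to be covered and ranged from 360 to 4033 with libraries left out (616 without KO D0 line 2, 650 without line 1 and 4033 without line 2). Requiring a −log10 q-value of at least 2 in all lists gave 312, of which 289 were members. With only the 20000 strongest peaks per list, 9.27% of regions were at gene ends and 49.0% outside genes, and the median percentile among those peaks was 36.8 in D0, 36.4 in D1 CTL and 41.2 in D1 MR, so that both early differences in strength changed sign, to -0.395 (D1 CTL minus D0) and 4.87 (D1 MR minus D1 CTL). With libraries left out these ranged from -5.60 (without KO D0 line 2) to 16.1 and from -10.7 to -1.53. With libraries left out, shares ranged from 4.24% to 6.25% at gene ends, 38.4% to 43.1% in gene bodies, 52.6% to 56.5% outside genes and 19.2% to 26% on chromosomes 3, 4 and 15. Windows of 500 and 2000 bp at gene ends gave 3.91% and 6.70%.

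At D5, KO minus WT kept its direction under all alternatives run, from 13.5 to 69.2 points in percent called and from 3.61 to 9.84 per 1000 regions with libraries left out. No alternative left out both D5 libraries of line 2, on which the direction in percent called rests. Line 1 called 0.279% of members in CTL and 1.12% in MR. WT called 0.559% in each CTL replicate and 5.03% and 3.07% in MR, all above line 1 in the same medium. Per 1000 called regions, line 1 (1.56 and 2.13) was above all WT libraries. MR minus CTL ranged from -23.4 to 17.2 points and from -1.80 to 2.43 per 1000. It changed sign to 17.2 without KO D5 CTL line 2 and to 12 without KO D5 MR line 1. Per 1000 it changed to -1.80 without KO D5 CTL line 1 and to -1.69 without KO D5 MR line 2. The 1-line contrast left in each case is the construction of that setting. KO line numbers and WT replicate numbers share only a number. With that number as a replicate block, KO minus WT was 33.8 points (exact p = 0.5) and 5.72 per 1000 (exact p = 0.125). MR minus CTL was -3.07 points (exact p = 1) and 0.313 per 1000 (exact p = 0.125). Such a block allows no p-value under 0.125, and it changed no call. No alternative put any test under 0.05, which the design cannot reach.

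Sequence content of the regions (motifs, GC content, repeats) was not run, since no genome was used here. Read depth was not analysed here, and lists of few peaks limit every D5 value of KO line 1. A region without a peak is one without a call at the threshold of that list.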
